A study of Mus musculus with 18 samples.

Results

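The 10 genes described here encode the enzymes that turn pyruvate, lactate, alanine and glycerol into glucose in the liver, and the membrane proteins that bring in glycerol and let glucose out. They are Pcx, Pck1, Pck2, Fbp1, G6pc, G6pc3, Slc37a4, Slc2a2, Aqp9 and Ldha. They were taken as a list of symbols and matched to Ensembl identifiers, and each of the 10 was found once among the 28030 genes of the table. All 10 passed the filter on low counts that left 12477 genes for testing.

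RNA was sequenced from hepatocytes of wild-type C57BL/6J male mice aged 12 weeks on a chow diet. The cells came from either side of the liver lobule, pericentral (next to the central vein) or periportal (next to the incoming blood), and were separated with digitonin, a detergent that is perfused to destroy the cells of one side while those of the other stay intact. Each zone was sampled in 3 feeding states with 3 libraries per group, 18 in all. Every mouse, the fed ones included, had been trained for 3 days to eat for 8 h in the daytime and go without food for 16 h overnight. On the last day all received chow together with 20% sucrose in the water. The fed groups were killed at clock hour 13, after 4 h of this meal. The fasted groups lost food and sucrose at clock hour 13 and were killed after 8 h, at clock hour 21, or after 24 h, at clock hour 13 again. Clock hour and fasting therefore cannot be told apart at 8 h. The title of the series puts its subject as the plasticity across the lobule of gluconeogenic expression.

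Gluconeogenesis runs glycolysis backwards except at the irreversible steps, which have enzymes of their own. Pyruvate carboxylase (Pcx) and phosphoenolpyruvate carboxykinase (Pck1 in the cytosol, Pck2 in mitochondria) bypass pyruvate kinase, fructose-1,6-bisphosphatase (Fbp1) bypasses phosphofructokinase, and glucose-6-phosphatase (G6pc), fed with its substrate by the transporter Slc37a4, catalyses the last step. The pathway is known to be strongest on the portal side of the lobule, and Pck1 and G6pc are known to be switched on by glucagon, glucocorticoids and cyclic AMP and switched off by insulin.

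Libraries held 18359911 to 26384358 estimated counts. The summed level of 5 general hepatocyte markers was 56588 to 97958 CPM (counts scaled to a common library total with TMM factors, which equalise the bulk of genes between libraries) in pericentral and 112410 to 184578 CPM in periportal libraries. Most of this sum was Alb, with means of 51449 CPM in fed pericentral and 105884 CPM in fed periportal libraries. In the same order Serpina1c read 6820 and 9275 CPM and Apoc3 825 and 1069 CPM. Apoa1 (4905 and 5139 CPM) and Ttr (4513 and 4664 CPM) differed less. The 4 pericentral markers summed to at least 9302 CPM in pericentral and at most 2043 CPM in periportal libraries, and the 4 periportal markers to at most 1792 CPM and at least 3133 CPM. By state, the periportal marker sum in pericentral libraries was 278 to 456 CPM fed, 466 to 598 CPM at 8 h and 806 to 1792 CPM at 24 h. In periportal libraries it was 3133 to 3945, 3689 to 5411 and 4053 to 4271 CPM in the same order. The part of this shift in the zone differences was not tested. Pericentral 24 h replicate 2 stood apart from its group, with 111 CPM of the central-vein enzyme Glul against 928 and 707 CPM and a periportal marker sum of 1792 CPM against 868 and 806 CPM. Markers of other cells were summed too. In pericentral and periportal libraries, 5 endothelial markers summed to 2.63 to 9.29 and 3.43 to 25.8 CPM, 7 Kupffer cell and leukocyte markers to 0.511 to 5.59 and 0.565 to 21.0 CPM, and 4 stellate cell markers to 0.696 to 4.89 and 0.969 to 14.0 CPM. The 4 bile duct markers summed to 13.9 to 27.7 CPM in pericentral and 21.2 to 33.7 CPM in periportal libraries. Of these Epcam was at 0 in all libraries, Krt19 reached at most 0.506 CPM, Krt7 lay between 11.1 and 20.2 CPM, and Sox9 read 2.42 to 8.80 CPM in pericentral and 6.73 to 17.4 CPM in periportal libraries. The 3 red cell markers summed to 36.6 to 65.9 and 30.8 to 75.1 CPM, and Hbb-bs among them reached 2.12 and 21.6 CPM. The largest part of this sum in every library was Alas2, at 35.0 to 65.3 and 29.2 to 66.5 CPM, so the sum says little about the globins. The part of these other cells in the zone differences was not tested.

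Promoter sequence is shown for Pck1 and G6pc, which rose with fasting in both zones, and for Slc37a4, whose product works in the same step as G6pc but which was not called in fasting. Each window runs from 250 bases before to 50 bases after a RefSeq start (build GRCm38.p6), 5′ to 3′ on the gene's strand, and capitals mark TGACG on either strand, the core of a cyclic AMP response element, and TATAAA, the TATA box. They lie at chr2:173152823-173153122 for Pck1, chr11:101367466-101367765 for G6pc and chr9:44396849-44397148 for Slc37a4, all on the plus strand.
Pck1: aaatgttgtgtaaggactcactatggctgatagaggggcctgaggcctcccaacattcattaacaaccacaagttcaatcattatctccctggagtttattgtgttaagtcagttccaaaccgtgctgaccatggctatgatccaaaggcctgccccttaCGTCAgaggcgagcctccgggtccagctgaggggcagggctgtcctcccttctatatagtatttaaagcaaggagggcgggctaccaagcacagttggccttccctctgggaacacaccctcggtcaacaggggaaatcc
G6pc: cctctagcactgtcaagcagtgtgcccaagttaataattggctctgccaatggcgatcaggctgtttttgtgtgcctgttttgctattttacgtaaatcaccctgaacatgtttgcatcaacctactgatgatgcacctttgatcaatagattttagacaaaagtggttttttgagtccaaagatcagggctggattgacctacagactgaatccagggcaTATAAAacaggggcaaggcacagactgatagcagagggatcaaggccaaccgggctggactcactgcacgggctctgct
Slc37a4: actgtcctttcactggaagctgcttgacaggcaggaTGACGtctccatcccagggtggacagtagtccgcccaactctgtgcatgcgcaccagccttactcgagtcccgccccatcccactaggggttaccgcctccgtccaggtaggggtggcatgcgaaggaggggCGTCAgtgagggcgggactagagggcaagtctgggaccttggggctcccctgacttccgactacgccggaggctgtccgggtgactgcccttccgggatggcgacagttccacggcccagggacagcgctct
In Pck1 the reverse complement of TGACG spans bases -90 to -86 from the start, and in G6pc TATAAA spans -29 to -24. The Slc37a4 window has TGACG at -214 to -210 and its reverse complement at -82 to -78. The 10 genes matched 15 RefSeq windows. TGACG was found in windows of 3 of the 10 (Pck1, Slc37a4 and Ldha, where 2 matches overlap), TATAAA in 2 (G6pc and another Slc37a4 start), the E-box CACGTG in 3 (G6pc3, Ldha and Pcx), AGAACA in 2 (Aqp9 and G6pc3) and TGTTTAC in 0. Counted by window, these were 5, 2, 3, 2 and 0 of the 15, where 2 overlapping Slc37a4 windows share a TGACG site. Of all 32851 windows, 20.8% held TGACG, 13.6% TATAAA, 7.15% CACGTG, 19.0% AGAACA and 3.65% TGTTTAC on either strand. These matches are descriptions of sequence, and binding was not measured. The search took exact strings only, so variants of an element in any window, that of G6pc included, were not counted.

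The genes spanned a wide range of levels. Per kilobase of the principal transcript, group means reached 2223 CPM per kb for Pck1, 992 for Fbp1, 505 for G6pc, 396 for Ldha, 174 for Aqp9, 171 for Slc37a4 and 101 for Slc2a2 in their highest groups. Pcx reached 40.8 CPM per kb, G6pc3 3.04 and Pck2 0.392. In fed pericentral hepatocytes the order differed, with Fbp1 at 516 CPM per kb, Ldha at 267, Aqp9 at 156 and Slc37a4 at 136, all above Pck1 at 63.7 and G6pc at 51.7. In libraries made from many cells, fewer cells with a transcript and less of it per cell cannot be told apart. No exon of another gene overlapped those of 9 of the genes in the GENCODE M21 annotation, and Pck2 shared 53 of its 7806 exonic bases with an antisense RNA. The 2 processed pseudogenes of Ldha were assigned about 1 count at most in any library.

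**Figure D1:**
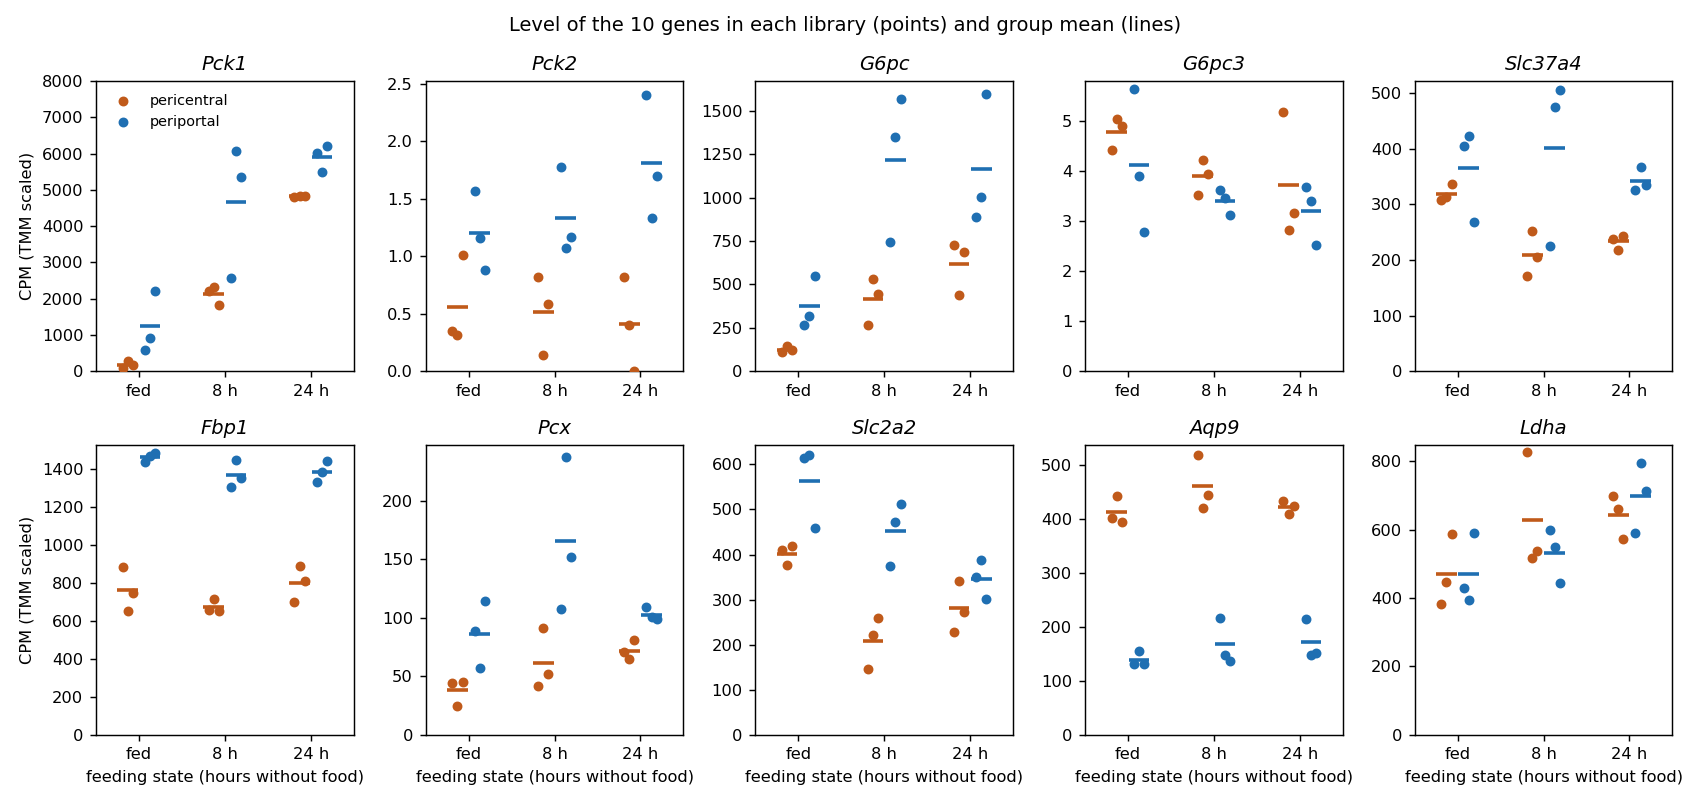
Level of each gene (y axis, CPM scaled by TMM factors, from 0) in fed, 8 h and 24 h libraries (x axis), with each library as a point and the group mean as a line, pericentral in orange and periportal in blue. Pck1 and G6pc climb from fed to 8 h in both zones, Fbp1 and Aqp9 keep separate bands for the zones in all states, and the points of Ldha and G6pc3 mix.

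Pcx (ENSMUSG00000024892, chr19:4510472-4621752, plus strand, GRCm38) makes oxaloacetate from pyruvate in mitochondria and so supplies the phosphoenolpyruvate step. Its fed libraries read 44.3, 25.0 and 45.0 CPM in pericentral and 88.6, 56.9 and 114 CPM in periportal hepatocytes. At 8 h they read 41.7, 90.8 and 52.3 CPM against 108, 237 and 152 CPM. At 24 h they read 70.5, 64.6 and 80.8 CPM against 109, 100.4 and 98.5 CPM. No pericentral library reached the lowest periportal one of its state, and the widest spread was in the periportal 8 h group. Zones did not overlap, in either direction, for 28.3% of all genes tested when fed, 23.9% at 8 h and 22.1% at 24 h. Averaged over the states Pcx was 2.06-fold higher on the portal side (log2 1.04, SE 0.20, edgeR adjusted p 0.00155), a call that held in all 26 alternative analyses. The excess was 1.43 (SE 0.34) at 8 h and 0.51 (SE 0.34) at 24 h, and the contrast between them, -0.91 (SE 0.48), had an edgeR adjusted p of 0.829. The fed call (1.18, SE 0.34, edgeR adjusted p 0.0482) failed in 17 of the 26 alternatives. In 13 of these a single library was omitted (0.93 to 1.32), and the 5 omissions that kept it were of periportal fed replicate 2 and, in either zone, of 8 h replicates 1 and 2. The 8 h call (edgeR adjusted p 0.0203) failed in a fit of its groups alone and on omission of pericentral 8 h replicate 1 (1.21) or 3 (1.32) or of periportal 8 h replicate 2 (1.08).

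Pck1 (ENSMUSG00000027513, chr2:173153048-173159273, plus strand) makes phosphoenolpyruvate in the cytosol and is the classic hormone-controlled gene of the pathway. Fed pericentral libraries held 75.6, 276 and 157 CPM, and fed periportal ones 593, 926 and 2198 CPM. The 8 h libraries held 2199, 2330 and 1826 CPM against 2564, 6060 and 5356 CPM, and the 24 h libraries 4789, 4842 and 4823 CPM against 6025, 5503 and 6218 CPM. The zones did not overlap in any state, and the 3 pericentral 24 h libraries were nearly level (SD 26.7 CPM). The periportal to pericentral ratio was 7.31-fold in the fed state, 2.20-fold at 8 h and 1.23-fold at 24 h, and of these only the fed one was called (log2 2.87, SE 0.49, edgeR adjusted p 0.0019, lost when only its groups were fitted). Ordered by mean, pericentral 8 h overlapped periportal fed, and pericentral 24 h overlapped periportal 8 h, while the other neighbouring groups did not overlap.

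Pck2 (ENSMUSG00000040618, chr14:55540266-55551242, plus strand), the mitochondrial form, was near the floor of detection. It read 0 to 1.01 CPM in the 9 pericentral libraries, with 0 in pericentral 24 h replicate 3, and 0.881 to 2.40 CPM in the 9 periportal ones, or at most 44.1 counts. The zone ranges overlapped only in the fed state. Averaged over the states it was higher on the portal side (log2 1.52, SE 0.41, edgeR adjusted p 0.0143), called in the 25 alternatives that tested it, since its mean of 0.971 CPM fell short of a filter at a mean of 1 CPM, and at levels where the SE within a state was 0.70 to 0.72. Pck1 was above Pck2 in every library, by group means of 169.5 against 0.557 CPM even in fed pericentral hepatocytes.

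Fbp1 (ENSMUSG00000069805, chr13:62864753-62888282, minus strand) releases the first phosphate and is regulated mostly as a protein. Fed libraries read 885, 655 and 747 CPM in pericentral and 1441, 1471 and 1488 CPM in periportal hepatocytes, 8 h libraries 659, 717 and 651 CPM against 1305, 1448 and 1355 CPM, and 24 h libraries 701, 892 and 811 CPM against 1331, 1386 and 1446 CPM. The highest of the 9 pericentral values lay below the lowest of the 9 periportal values. The portal excess averaged over the states was 1.89-fold (log2 0.92, SE 0.07, edgeR adjusted p 8.86e-08), and its calls in each state held in all 26 alternatives. Among its 6 fasting contrasts edgeR called 0, in this fit and in all 26 alternatives, and 0 had an unadjusted p under 0.05. Their log2 values ran from -0.17 to 0.25 with an SE of 0.12.

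G6pc (ENSMUSG00000078650, chr11:101367561-101377903, plus strand) cleaves glucose 6-phosphate in the endoplasmic reticulum, the last step shared by gluconeogenesis and glycogen breakdown. Fed values were 112, 143 and 119 CPM in pericentral and 263, 316 and 548 CPM in periportal libraries. The 8 h libraries read 266, 530 and 443 CPM against 746, 1347 and 1567 CPM, and the 24 h libraries 726, 438 and 687 CPM against 891, 1001 and 1598 CPM. The zones did not overlap in any state, and within each zone every fasted library lay above every fed one. Of all genes tested, 32.2% at 8 h and 38.7% at 24 h separated from fed, in either direction, in pericentral hepatocytes. In periportal hepatocytes these shares were 31.6% and 36.9%. Averaged over the states the portal excess was 2.56-fold (log2 1.36, SE 0.20, edgeR adjusted p 0.000162, called in all 26 alternatives). The fed difference of 1.59 (SE 0.35, edgeR adjusted p 0.00989) was no longer called on omission of periportal fed replicate 3 (1.21). The 8 h difference of 1.56 (SE 0.35, adjusted p 0.0121) failed in a fit of its groups alone and on omission of pericentral 8 h replicate 1 (1.32) or of periportal 8 h replicate 3 (1.34).

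Slc37a4 (ENSMUSG00000032114, chr9:44396852-44402968, plus strand) carries glucose 6-phosphate into the endoplasmic reticulum to meet G6pc. Of its 6 fasting contrasts edgeR, DESeq2 and limma-voom called 0, and 1 had an unadjusted p under 0.05. Fed pericentral libraries read 308, 313 and 337 CPM, 8 h ones 171, 252 and 205 CPM, and 24 h ones 239, 218 and 243 CPM, so that every fasted library lay below every fed one. In pericentral hepatocytes 32.2% of all genes tested separated from fed at 8 h and 38.7% at 24 h, in either direction. Periportal libraries read 405, 424 and 268 CPM when fed, 225, 475 and 505 CPM after 8 h, and 326, 367 and 335 CPM after 24 h, with no such separation. The pericentral differences from fed were -0.61 at 8 h (SE 0.24, edgeR adjusted p 0.104) and, without a call either, -0.45 at 24 h (SE 0.24, adjusted p 0.19). Both passed in a fit of their groups alone and on omission of periportal 8 h replicate 1 (-0.60 and -0.46). In periportal hepatocytes the differences were 0.14 (SE 0.24) and -0.10 (SE 0.24). Between zones Slc37a4 was higher on the portal side over the mean of the states by 1.48-fold (log2 0.56, SE 0.14, edgeR adjusted p 0.00728, called in all 26 alternatives). The 8 h difference (0.94, SE 0.24, edgeR adjusted p 0.023) failed in a fit of its groups alone (adjusted p 0.181) and on omission of pericentral 8 h replicate 1 (0.81) or 3 (0.92) or of periportal 8 h replicate 2 (0.80) or 3 (0.74). Periportal 8 h replicate 1, at 225 CPM, lay within the pericentral range.

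The balance between the enzyme and its transporter is given as a ratio that was chosen after the values were seen. The log2 ratio of G6pc to Slc37a4 CPM ranged from -1.50 to -1.13 in fed pericentral and from -0.62 to 1.03 in fed periportal libraries. It ranged from 0.64 to 1.11 and from 1.50 to 1.73 at 8 h, and from 1.01 to 1.60 and from 1.45 to 2.26 at 24 h. In pericentral hepatocytes all fasted libraries lay above all fed ones. In the periportal ones they did so as well, since fed replicate 3, the highest at 1.03, stayed below 1.45. That library combined the highest Pck1 and G6pc of its group with the lowest Slc37a4 and Slc2a2, and it held 500 CPM of Pklr, the pyruvate kinase gene, against 1233 and 1282 CPM in the other fed periportal libraries. Omitting it took the number of the 10 genes called between the fed zones from 5 to 3.

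**Figure D2:**
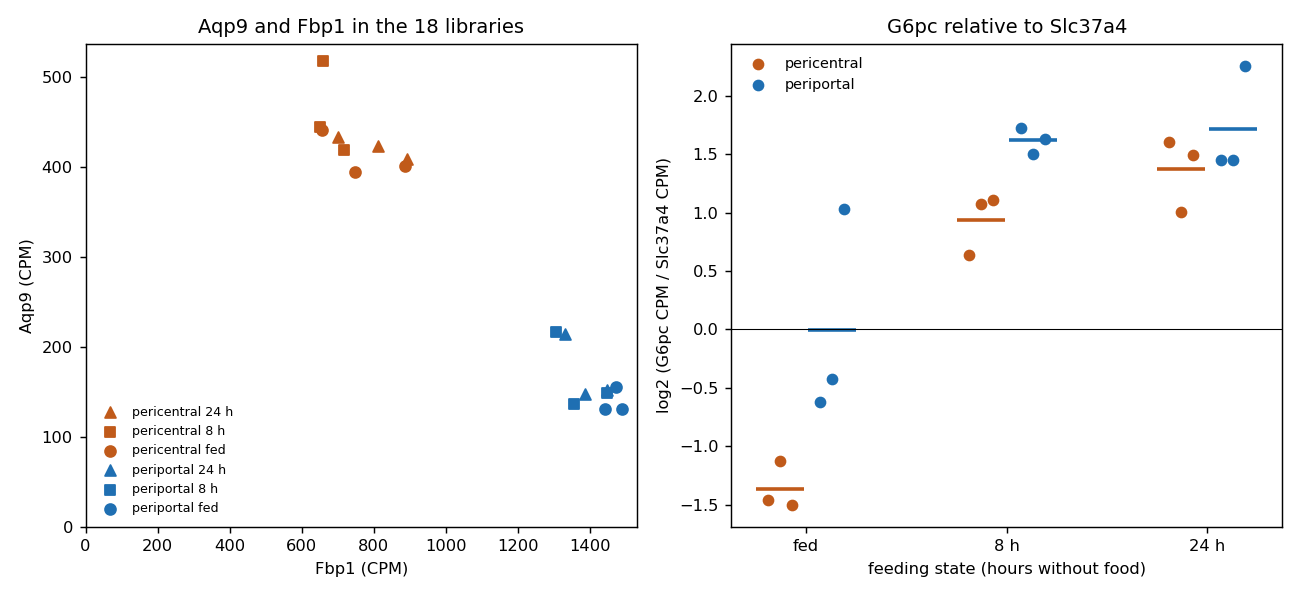
Left, Aqp9 against Fbp1 level (both axes in CPM from 0) in the 18 libraries, coloured by zone and shaped by feeding state, where the pericentral and periportal libraries form separate groups on both axes. Right, log2 ratio of G6pc to Slc37a4 (y axis) by feeding state (x axis), with libraries as points and group means as lines, where the 3 fed pericentral libraries lie between -1.50 and -1.13 and all fasted libraries lie above 0.

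G6pc3 (ENSMUSG00000034793, chr11:102189620-102194081, plus strand), the ubiquitous phosphatase known from neutrophil function, was at 2.53 to 5.65 CPM in all libraries. Its zones overlapped in every state and edgeR called 0 of its 13 contrasts, in this fit and in all 26 alternatives, with 0 at an unadjusted p under 0.05. The zone differences were -0.19 to -0.22 (SE 0.25 to 0.26), and the fasting differences against fed were -0.27 to -0.36.

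Slc2a2 (ENSMUSG00000027690, chr3:28697903-28731359, plus strand) encodes GLUT2, the two-way glucose carrier of the hepatocyte surface through which glucose both enters after a meal and leaves in fasting. It was called lower than fed at 8 h in pericentral and at 24 h in periportal hepatocytes, while G6pc was called higher at both times in both zones. Fed libraries read 410, 377 and 420 CPM in pericentral and 614, 620 and 458 CPM in periportal hepatocytes. The 8 h libraries read 147, 221 and 258 CPM against 375, 472 and 513 CPM. The 24 h libraries read 228, 342 and 273 CPM against 349, 388 and 302 CPM. Pericentral libraries of both fasted groups lay below all fed ones, and periportal libraries did so at 24 h but not at 8 h. In pericentral hepatocytes Slc2a2 fell at 8 h to 0.519 of the fed level (log2 -0.95, SE 0.20, edgeR adjusted p 0.00355), a call held in all 26 alternatives. At 24 h the pericentral difference of -0.52 (SE 0.19, edgeR adjusted p 0.0674) was not called. It passed with DESeq2, in a fit of its groups alone, and on omission of pericentral 8 h replicate 1 (-0.53) or 3 (-0.53) or of pericentral 24 h replicate 2 (-0.68, adjusted p 0.0353), the library that stood apart in its markers. In periportal hepatocytes Slc2a2 fell at 24 h to 0.614 of the fed level (log2 -0.70, SE 0.20, edgeR adjusted p 0.0178), a call that failed on omission of periportal fed replicate 1 (-0.64) or 2 (-0.63) or of periportal 24 h replicate 3 (-0.61). Its 8 h difference there was -0.32 (SE 0.19, edgeR adjusted p 0.322).

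Between zones Slc2a2 was higher on the portal side by 2.17-fold at 8 h (log2 1.12, SE 0.20, edgeR adjusted p 0.00179) and, by 1.56-fold, over the mean of the states (log2 0.64, SE 0.11, adjusted p 0.000556). Both calls held in all 26 alternatives. The fed zones were 0.49 apart (SE 0.19, edgeR adjusted p 0.152) and the 24 h zones 0.30 apart (SE 0.19, adjusted p 0.473), neither called, and the libraries overlapped at 24 h. The highest group was periportal fed and the lowest pericentral 8 h, and every pair of neighbours in the order of means overlapped.

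Aqp9 (ENSMUSG00000032204, chr9:71110659-71168682, minus strand), the aquaglyceroporin through which hepatocytes take up glycerol, was the only gene of the set called higher on the central side. Pericentral libraries read 401, 442 and 395 CPM when fed, 518, 419 and 444 CPM after 8 h, and 433, 410 and 424 CPM after 24 h. Periportal ones read 131, 155 and 131 CPM when fed, then 217, 148 and 137 CPM after 8 h, and 214, 148 and 152 CPM after 24 h. The lowest pericentral value, 395 CPM, was well above the highest periportal one, 217 CPM. The log2 difference, periportal minus pericentral, was -1.57 fed, -1.46 at 8 h and -1.30 at 24 h (SE 0.17 each, edgeR adjusted p 2.2e-05, 6.36e-05 and 0.000305), and -1.44 over the mean of the states (SE 0.10, adjusted p 3.04e-08). These 4 calls held in all 26 alternatives. Its 6 fasting contrasts gave 0 calls by edgeR, in this fit and in all 26 alternatives, and 0 with an unadjusted p under 0.05, at differences from -0.13 to 0.30. In each state the periportal library with the most Cyp2e1, a pericentral enzyme, also had the most Aqp9. These were fed replicate 2 (1206 CPM of Cyp2e1), 8 h replicate 1 (936 CPM) and 24 h replicate 1 (1825 CPM). The pericentral marker Cyp1a2 was also highest there, though at 8 h by only 65.7 against 65.4 CPM in replicate 2. Oat was not at 8 h, with 22.0 CPM against 40.5 CPM in replicate 2. Glul was lowest there at 8 h (67.7 CPM), and at 24 h it read 121 CPM against 174 CPM in replicate 2. The part of pericentral cells in the periportal Aqp9 level was not tested.

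Ldha (ENSMUSG00000063229, chr7:46841475-46855627, plus strand) encodes the A subunit of lactate dehydrogenase, which brings lactate into the pathway as pyruvate and also runs in reverse. Fed libraries read 382, 446 and 586 CPM in pericentral and 430, 395 and 590 CPM in periportal hepatocytes, and the group means were 472 ± 104 CPM in each (SD, n = 3). The 8 h libraries read 827, 519 and 539 CPM against 600, 551 and 444 CPM. The 24 h libraries read 698, 662 and 572 CPM against 589, 796 and 715 CPM. The zones overlapped in every state, and edgeR called 0 of the 4 zone contrasts, in this fit and in all 26 alternatives, with 0 at an unadjusted p under 0.05 and an average difference of -0.04 (SE 0.12). Against fed, 24 h levels differed by 0.45 (SE 0.21, edgeR adjusted p 0.134) on the central and 0.57 (SE 0.21, adjusted p 0.0637) on the portal side, without a call. The latter passed with DESeq2, in a fit of its groups alone, and on omission of periportal fed replicate 3 (0.76) or of pericentral 8 h replicate 1 (0.56).

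Calls between zones are counted first. The 10 genes and the gene lists were chosen with earlier results of these data known. The shares of all genes, here and below, are therefore given for scale and are not a test of a set. In fed mice 5 of the 10 genes were called between zones, 4 higher and 1 lower on the portal side, where 8.01% of all genes tested were called. At 8 h 6 were called (5 higher, 1 lower), against 7.14% of all genes. At 24 h only Fbp1 (higher) and Aqp9 (lower) were called, against 4.17% of all genes. Over the mean of the states 8 of 10 were called (7 higher, 1 lower), against 20.3% of all genes, leaving out only G6pc3 and Ldha. The median log2 difference of the 10 genes was 0.72, 1.07, 0.41 and 0.78 in these 4 contrasts, while the median of all genes tested lay between -0.020 and 0.015 in each of the 13 contrasts. Fitting only the groups compared gave counts of 3, 3 and 4 in the fed, 8 h and 24 h states. The fed count was 3 without periportal fed replicate 3, and the 8 h count was 3 without pericentral 8 h replicate 1.

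**Figure D3:**
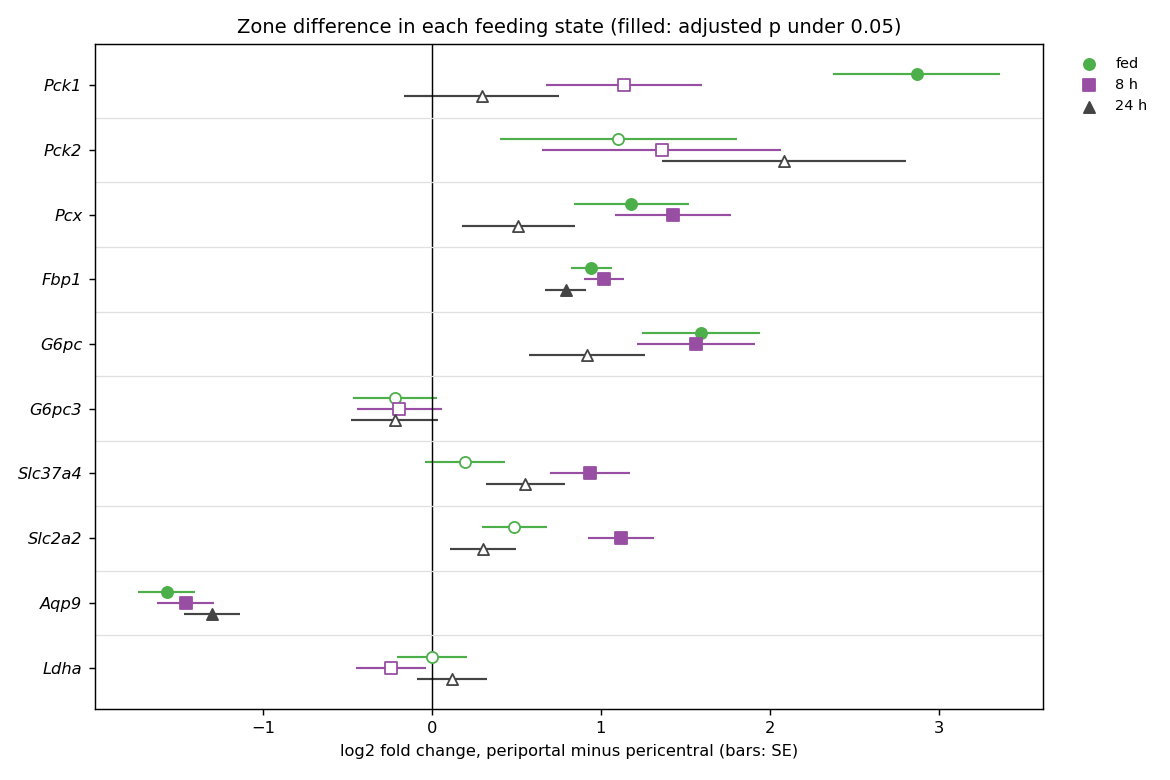
Log2 fold change between zones (x axis, periportal minus pericentral, bars are SE) for each gene (y axis) in the fed, 8 h and 24 h states, with filled symbols where the edgeR adjusted p was under 0.05. Aqp9 is the only gene far to the left, Fbp1 stays between 0.79 and 1.02, and Pck1 moves from 2.87 fed to 0.30 at 24 h.

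Among the 10 genes, Pck1, G6pc and Slc2a2 were called between fasted and fed groups, which at 8 h also differed in clock hour. In pericentral hepatocytes 3 were called at 8 h (2 rose, 1 fell), where 13.8% of all genes were called, 2 at 24 h (both rose) against 21.8%, and 0 between 24 h and 8 h against 9.71%. In periportal hepatocytes 2 rose at 8 h against 14.4% of all genes, 3 were called at 24 h (2 rose, 1 fell) against 19.6%, and 0 between 24 h and 8 h against 7.46%. Of the 8 genes other than Pck1 and G6pc, only Slc2a2 was called in any of the 6 contrasts. Pck1 rose by 28.4-fold and G6pc by 4.95-fold from fed to 24 h in pericentral hepatocytes, and by 4.77-fold and 3.10-fold on the portal side. Where edgeR called 0 genes between 24 h and 8 h, 2 of the 10 in pericentral and 0 in periportal hepatocytes had an unadjusted p under 0.05, and DESeq2 and limma-voom called 0 in both. For 24 h against fed on the central side the count was 4 with DESeq2 and 5 in a fit of those groups alone. The periportal rise of Pck1 at 8 h (1.91, SE 0.47, edgeR adjusted p 0.0145) failed in a fit of its groups alone and on omission of periportal fed replicate 1 (1.58) or 2 (1.74) or of periportal 8 h replicate 2 (1.68), which leave G6pc as the 1 gene called, while the other 7 calls of Pck1 and G6pc against fed held in all 26 alternatives. The comparisons at 8 h and 24 h share their fed libraries.

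**Figure D4:**
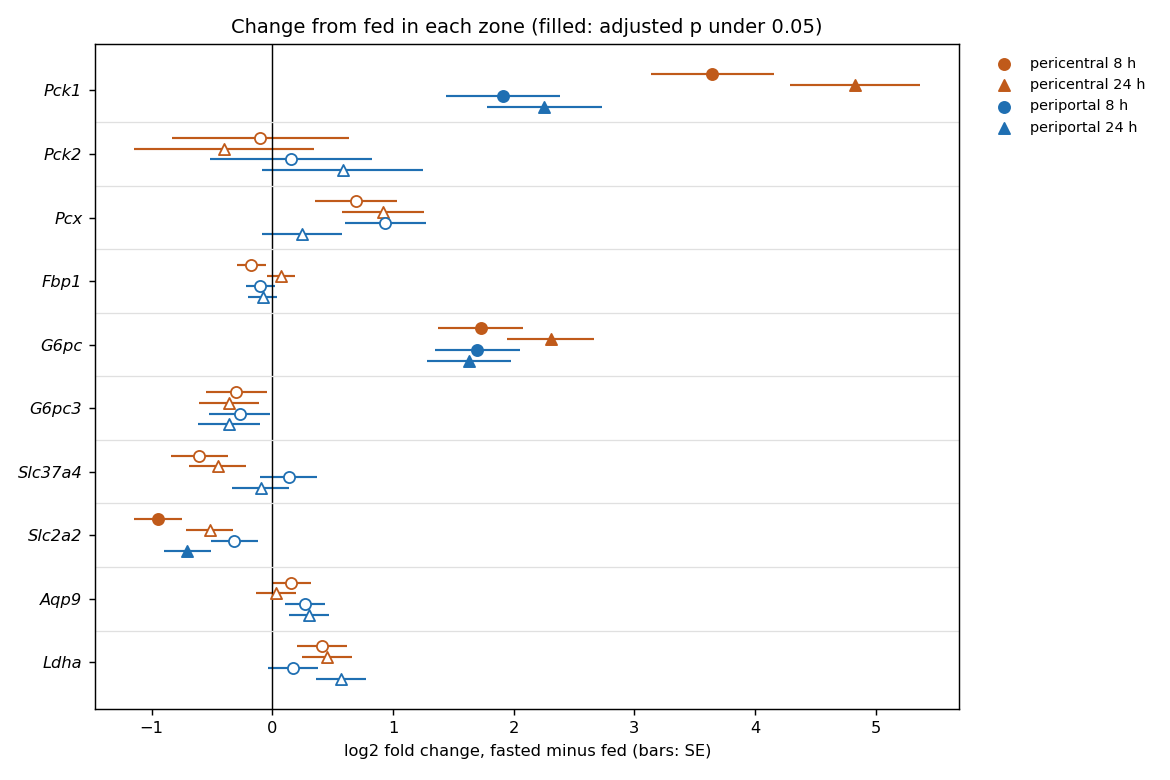
Log2 fold change from fed (x axis, bars are SE) for each gene (y axis) at 8 h (circles) and 24 h (triangles) in pericentral (orange) and periportal (blue) hepatocytes, with filled symbols where the edgeR adjusted p was under 0.05. Pck1 reaches 4.83 and G6pc 2.31 in pericentral hepatocytes at 24 h, Slc2a2 lies to the left of 0 in all 4 contrasts, and Fbp1 and Aqp9 lie between -0.17 and 0.30.

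Whether fasting acted differently in the zones was tested as the periportal minus the pericentral change. None of the 10 genes was called from fed to 8 h (0% of all genes called), from fed to 24 h (0.016%) or from 8 h to 24 h (0%), and DESeq2 and limma-voom also called 0 of the 10. At an unadjusted p under 0.05 there were 3, 1 and 1 of the 10, where all genes tested gave 5.45%, 7.71% and 5.98%. From fed to 8 h these were Pck1 (-1.73, SE 0.65, edgeR adjusted p 0.909), Slc37a4 (0.74, SE 0.33, adjusted p 0.909) and Slc2a2 (0.63, SE 0.27, adjusted p 0.909). A negative value means a higher rise or smaller fall on the central side. From fed to 24 h it was Pck1 (-2.57, SE 0.66, edgeR adjusted p 0.345), and from 8 h to 24 h Slc2a2 (-0.82, SE 0.28, adjusted p 0.748). Zone differences called in one state and not in another, as for Pck1, G6pc, Pcx, Slc37a4 and Slc2a2, are therefore not shown to differ between states.

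Of 6 enzymes that gluconeogenesis shares with glycolysis (Tpi1, Gapdh, Pgk1, Pgam1, Eno1 and Gpi1), 5 were higher on the portal side over the mean of the states and 0 lower, where 20.3% of all genes were called, with a median of 0.40. They include Eno1, an enolase (log2 0.61, SE 0.08, edgeR adjusted p 2.91e-05), and Gapdh, glyceraldehyde phosphate dehydrogenase (0.54, SE 0.09, adjusted p 0.000281). None rose with fasting in the 4 contrasts against fed. Eno1 and Gpi1, the glucose phosphate isomerase, fell at 24 h on the central (-0.59 and -1.09) and on the portal side (-0.41 and -0.98). The median of the 6 was -0.23 on the central and -0.072 on the portal side at 24 h.

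Of 19 genes of substrate entry and shuttles, 5 rose and 1 fell at 24 h in pericentral hepatocytes, where 21.8% of all genes were called, and 3 rose and 1 fell in periportal hepatocytes, where 19.6% were. Got1, the cytosolic aspartate aminotransferase of the malate-aspartate shuttle, rose by 2.70 (SE 0.42, edgeR adjusted p 0.000462) on the central and 2.26 (SE 0.41, adjusted p 0.00165) on the portal side. Gk, glycerol kinase, which acts on the glycerol that Aqp9 lets in, rose by 1.24 (SE 0.17, edgeR adjusted p 9.6e-05) on the central and 0.90 (SE 0.17, adjusted p 0.0014) on the portal side. Mpc2, a subunit of the mitochondrial pyruvate carrier, rose by 0.36 in each zone, and Slc25a13 and Slc25a10, mitochondrial carriers, by 0.54 and 0.51 in pericentral hepatocytes. Gpd2, the mitochondrial glycerol phosphate dehydrogenase, fell by 1.42 in pericentral and 0.82 in periportal hepatocytes on the log2 scale. Over the mean of the states 3 were higher (Slc25a12, Mdh1 and Slc25a11) and 3 lower (Slc16a7, Ldhd and Mpc1) on the portal side, where 20.3% of all genes were called, and the list's median was -0.07.

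Of 3 genes of glycolysis and its control, Pklr fell at 24 h in both zones. Its change from fed was -3.33 (SE 0.35, edgeR adjusted p 1.6e-05) on the central and -2.58 (SE 0.34, adjusted p 0.000115) on the portal side, with neither 8 h difference called. Pfkfb1, which sets fructose 2,6-bisphosphate, was lower on the portal side over the mean of the states (-1.06, SE 0.20, edgeR adjusted p 0.00156), and Pfkl was called in none of the 10 zone and fasting contrasts.

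Of 15 relatives of these genes that act mainly elsewhere or on other substrates, 9 were expressed enough to be tested, and G6pc2, Fbp2, Ldhc, Slc2a3, Aqp3 and Aqp7 were not. Slc2a1, encoding GLUT1, the widespread glucose carrier, rose against fed in both zones, by 0.88 at 8 h and 0.73 at 24 h on the central side and by 0.52 and 0.51 on the portal side (SE 0.15 each, edgeR adjusted p 0.000652, 0.00202, 0.0245 and 0.0218), at levels of 8.71 to 19.3 CPM. Aqp8, a water channel of hepatocytes, fell at 24 h by 2.69 (SE 0.53) and 2.98 (SE 0.54) on the log2 scale. None of the 9 was called between zones within a state.

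By likeness over the 18 libraries (Pearson r of log2 CPM with about 6588 candidate genes, a description in which libraries of 6 groups share zone and state), the genes closest to each member were as follows. Aqp9 was closest to Plbd1, Susd4 and Npr2 (r 0.975, 0.975 and 0.974) and Fbp1 to Aldh1b1, Uroc1 and Rida (0.957, 0.956 and 0.945). G6pc was closest to Aass, Slc25a47 and Slc25a51 (0.957, 0.942 and 0.940) and Pck1 to Crebrf, Slc8b1 and Klhl24 (0.928, 0.926 and 0.925). Slc37a4 was closest to Aldh1l1, mt-Co1 and Mdh1 (0.900, 0.877 and 0.863), Slc2a2 to Klf10, Cdc42ep1 and Cdc42 (0.869, 0.860 and 0.855) and Pcx to Serpinf1, Tent5c and Eps15 (0.867, 0.859 and 0.852). The highest r of Pck2, Ldha and G6pc3 were lower, with Rrbp1 (0.829), Serinc2 (0.822) and Lrrk1 (0.762).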

How the data were processed

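Gene expression was measured by RNA sequencing of 18 hepatocyte libraries. Estimated counts per gene, as deposited by the authors, were made with kallisto 0.46.0 on build mm10, per the submitters' processing notes; the annotation and any use of strand are not given in the sources used here. Totals of 18359911 to 26384358 counts per library set the precision, with 3 libraries per group. Counts were rounded to units of 1. The test was edgeR's quasi-likelihood F (version 4.0.16, R 4.3.3, robust, TMM factors, filterByExpr) in 1 fit of all libraries with 1 coefficient per group and 13 contrasts. P-values were adjusted by Benjamini-Hochberg over the 12477 genes tested and called under 0.05. The SE is the log2 fold change divided by the square root of F. CPM use TMM factors. Whether replicates or zones came from separate mice is not stated, so p-values measure the spread between these libraries. No 2 replicates agreed within sampling noise (chi-square per degree of freedom 35.9 to 122).

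The members and gene lists were chosen with earlier results of these data known. Always named were the 10 members, then listed genes called in a contrast discussed, and the 3 genes most like each member (mean of at least 10 CPM, log2 CPM with a prior count of 2). Gene positions and lengths come from GENCODE M21 and promoters from RefSeq. Alternatives were DESeq2 size factors, no filter beyond 1 count, a mean of at least 1 CPM, only the groups of the contrast, a block for replicate number, TMM scaling that left out the 20 most abundant genes, DESeq2 1.42.0, limma-voom (limma 3.58.1) and leaving out each of the 18 libraries. The fits were tested on simulated data. A few listed genes are not reported here. Deviations from the group means of same-numbered pericentral and periportal libraries correlated at 0.121, 0.165 and 0.147 at 24 h, where the 6 pairs of unlike number gave -0.121 to -0.024, and at -0.011 to 0.071 in the fed and 8 h states. Deviations within a group cancel out, so the values of unlike pairs follow in part from those of like pairs. The labels tie no number to a mouse. These correlations cannot show what a number marks, and the main fit did not pair the zones in any state. A block for the 24 h libraries alone was added as an alternative after seeing the data.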

Additional observations from a re-analysis of the deposited data

How the results depend on the processing

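Over 26 alternatives, 1064 values of the 41 pairs of gene and contrast with a call in any analysis were recomputed. Of these, 1002 kept their direction and side of the threshold, 38 lost and 24 gained a call, and 0 reversed. The counts of members called moved by more than 1.5 times mainly when only the groups of the contrast were fitted, which leaves fewer libraries to estimate the spread. Between zones they were then 3 in the fed state, 3 after 8 h and 4 after 24 h (5, 6 and 2 in the fit of all groups), 5 and 1 in pericentral hepatocytes for 24 h against fed and against 8 h (2 and 0), and 1 in periportal hepatocytes for 8 h against fed (2). DESeq2 called 4 members for 24 h against fed in pericentral hepatocytes (2), and the cause was not tested. Leaving out single libraries gave 3 to 5 members between fed zones, 3 to 6 between 8 h zones, and 1 to 3 for 8 h against fed in periportal hepatocytes. Other scalings moved the median of all genes by at most 0.0205 on the log2 scale. With the replicate number as a block, the fed zone count was 4, since Pcx (1.17, adjusted p 0.0711) was lost, and no other call of a member changed. An alternative chosen after seeing the data put the block on the 24 h libraries alone, and it called 2 members between the 24 h zones, again Fbp1 and Aqp9. Over all libraries 9 of 18 correlated best with their own number. Pck2 had 0 to 44.1 counts per library and an SE of 0.70 to 0.72 between zones within a state, and G6pc3 55 to 137 counts and an SE of 0.25 to 0.26, against 0.24 for Slc37a4.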
